A study of Homo sapiens with 12 samples.

Results

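RNA-seq levels of 36 genes of cholesterol and fatty acid synthesis were examined in 12 libraries of human cancer cells. The members were taken by name from a table of 40295 gene rows, and rows that share a symbol were added, which left 36486 rows. All 36 were found. They comprised 7 genes of the mevalonate steps, 11 of the late sterol steps from squalene to cholesterol, 8 of the fatty acid steps, 5 regulators of the SREBP pathway, and 5 genes of sterol handling together with LPIN1.

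The TOV-112D libraries came from an ovarian cancer cell line that carries the p53 mutant R175H, treated for 3 h with the vehicle DMSO, with UCI-1001 or with UCI-1014 (2 libraries each). UCI-1001 was selected in the study as a compound that restores activity to mutant p53, and UCI-1014 is a related compound. UCI-1001 was given at 10 µM. The dose of UCI-1014 in the RNA-seq was not found in the sources used here, so any difference between the compounds cannot be told apart from a difference in dose. The Saos-2 libraries came from an osteosarcoma line, which has no p53 of its own. Of these, 3 libraries were p53-null and 3 came from a derived line with lentiviral, doxycycline-inducible wild-type p53 (p53-WT), and the labels give 16 h of induction for both. The p53-WT line therefore differs from its parent by the integrated vector as well as by p53. The sources do not say whether replicates were separate cultures, so the p-values measure the spread between these libraries, which may be technical.

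Cells make cholesterol from acetyl-CoA. The mevalonate steps build the isoprene units, from HMGCS1 through IDI1 to FDPS. FDFT1 and SQLE then make and oxidise squalene, and the late steps close the rings and trim the sterol to cholesterol. ACLY, ACACA, FASN, ELOVL6 and SCD make, elongate and desaturate fatty acids. Both routes are under the SREBP transcription factors, encoded by SREBF1 and SREBF2. SCAP carries the SREBP precursor from the endoplasmic reticulum to the Golgi for cleavage when sterols are low, and INSIG1 and INSIG2 hold it back when sterols are high. SREBP-2 is known mainly for the sterol genes and SREBP-1 mainly for the fatty acid genes. ABCA1 and ABCG1 export sterol and MYLIP degrades lipoprotein receptors, and these are known targets of the sterol-sensing LXR factors.

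The deposited counts summed to 17762027 to 20717898 per TOV-112D library and to 19593655 to 24629558 per Saos-2 library. CPM below are counts scaled to the TMM-corrected library size, which compare libraries but not genes of unequal length. The log2FC is the log2 fold change of the fit, and its standard error (SE) was derived from the test statistic. CDKN1A, a p53 target, read 56.9 to 79.1 CPM in p53-null and 7921 to 9039 CPM in p53-WT cells, and 7.78 to 9.20 CPM with DMSO, 25.3 to 27.9 with UCI-1001 and 97.7 to 99.6 with UCI-1014. Defining markers of the labelled tissues were largely missing. Of the 7 osteoblast markers in Saos-2 cells, SP7 was at 0, IBSP, ALPL and SPARC stayed below 0.6 CPM, COL1A1 stayed below 2 CPM, and RUNX2 and SPP1 were present at 4.16 to 12.1 and 13.5 to 44.7 CPM. KRT8 and KRT18, epithelial keratins, were at 194 to 568 and 402 to 559 CPM there. Of the 8 ovarian epithelial markers in TOV-112D cells, KRT18 was at 0, PAX8, KRT8, KRT19 and MUC16 stayed at or below 0.512 CPM, and WT1, EPCAM and CDH1 lay between 0.819 and 3.09 CPM, while COL1A1 was at 47.75 to 53.04 CPM. These markers thus did not match the labelled tissue in either line. The identity of the lines was not tested, and the names used below are those of the labels. The blood and endothelial markers PTPRC, PECAM1 and CDH5 stayed at or below 2.94 CPM in TOV-112D and 0.57 CPM in Saos-2 cells.

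Replicate 1 of each Saos-2 line stood apart from the other two. The chi-square of the counts per degree of freedom was 24.6 and 26.4 between replicate 1 and the others of the p53-null line, against 3.95 between replicates 2 and 3. In the p53-WT line it was 40.9 and 41.3 against 3.19. The TOV-112D pairs gave 2.11, 3.26 and 3.91. The p53-WT results are therefore also given without both replicate 1 libraries.

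The upstream sequences of 6 members are shown, because these genes moved with a compound or, for SREBF2, because it alone held the sterol regulatory element searched. The sequences are those of RefSeq on GRCh38.p14, the 250 bases before the annotated start, written 5′ to 3′ on the strand of the gene. Capitals mark CCAAT, the box bound by NF-Y, on either strand (ATTGG is its reverse complement), and TCACNCCAC, a form of the sterol regulatory element.
HMGCS1, chr5:43313413-43313662, minus strand: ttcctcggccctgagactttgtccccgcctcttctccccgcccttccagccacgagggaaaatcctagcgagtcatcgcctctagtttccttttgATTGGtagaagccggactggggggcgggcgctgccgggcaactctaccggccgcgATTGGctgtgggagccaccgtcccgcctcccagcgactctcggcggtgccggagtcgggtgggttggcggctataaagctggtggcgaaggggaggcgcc
MSMO1, chr4:165327419-165327668, plus strand: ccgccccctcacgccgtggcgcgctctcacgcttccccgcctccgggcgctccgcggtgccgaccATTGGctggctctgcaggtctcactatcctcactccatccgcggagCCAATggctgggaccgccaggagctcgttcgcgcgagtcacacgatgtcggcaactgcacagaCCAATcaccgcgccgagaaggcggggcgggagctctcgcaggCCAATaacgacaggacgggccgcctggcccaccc
NSDHL, chrX:152830813-152831062, plus strand: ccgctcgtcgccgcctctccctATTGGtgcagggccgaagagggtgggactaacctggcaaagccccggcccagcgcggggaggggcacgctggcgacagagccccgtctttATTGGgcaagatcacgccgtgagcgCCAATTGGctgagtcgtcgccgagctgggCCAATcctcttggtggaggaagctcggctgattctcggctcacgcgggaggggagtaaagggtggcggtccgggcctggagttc
HSD17B7, chr1:162790452-162790701, plus strand: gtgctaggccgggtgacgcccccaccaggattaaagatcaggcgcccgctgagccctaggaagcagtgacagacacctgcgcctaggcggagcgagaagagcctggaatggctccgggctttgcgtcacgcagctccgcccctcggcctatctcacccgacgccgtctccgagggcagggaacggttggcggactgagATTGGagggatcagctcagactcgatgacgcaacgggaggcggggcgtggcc
INSIG1, chr7:155297628-155297877, plus strand: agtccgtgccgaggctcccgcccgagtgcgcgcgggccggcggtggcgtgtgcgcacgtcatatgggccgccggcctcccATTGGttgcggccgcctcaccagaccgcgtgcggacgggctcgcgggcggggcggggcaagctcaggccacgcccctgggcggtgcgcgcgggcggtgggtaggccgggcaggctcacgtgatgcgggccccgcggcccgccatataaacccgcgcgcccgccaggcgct
SREBF2, chr22:41832855-41833104, plus strand: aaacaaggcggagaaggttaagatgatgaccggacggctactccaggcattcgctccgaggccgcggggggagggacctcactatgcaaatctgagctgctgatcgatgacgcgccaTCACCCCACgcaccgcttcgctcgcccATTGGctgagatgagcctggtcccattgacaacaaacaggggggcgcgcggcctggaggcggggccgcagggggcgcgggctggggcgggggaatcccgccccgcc

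Promoter windows of 300 bases, 250 before and 50 after the start, were matched for 31 of the 36 members. CCAAT was found on either strand in 19 of the 31 (61.3%), against 35.7% of 27305 promoters of the same length. It was most frequent in the late sterol steps, with 8 of 9 windows (88.9%), followed by 4 of 6 in the mevalonate steps and 3 of 7 in the fatty acid steps. NSDHL held 5 copies, MSMO1 4, HMGCS1 2, INSIG1 1 and SREBF2 1. HSD17B7 held 2, of which the copy after the start is outside the sequence shown. GGGCGG, the SP1 box, was in 29 of 31 windows (93.5%) against 44.6% of all promoters. TCACNCCAC was in 1 of 31, against 1.15% of all promoters. The E-box CACGTG was in 5 of 31 (7.43% of all promoters), the heat shock element GAANNTTC in 0 of 31 (6.87%) and the antioxidant response element TGACNNNGC in 2 of 31 (13.6%). The motifs CCAAT and TCACNCCAC do not contain one another, and a match says only that the letters are present.

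Levels could be compared between genes for 28 members in TPM, the deposited transcript values, which account for transcript length. In TOV-112D cells with DMSO the highest were FDPS, at 450 and 418 TPM, and FASN, at 440 and 399 TPM, and the values of these genes overlapped. ACLY followed at 279 and 281 TPM and SCD at 280 and 272 TPM, which also overlapped. ABCA1, at 0.698 and 1.29 TPM, and ABCG1, at 1.31 and 1.00 TPM, were the lowest. In p53-null Saos-2 cells FDPS was again highest, at 314, 305 and 285 TPM, and SCD followed at 186, 271 and 245 TPM. FASN was lower there, at 83.7, 118 and 129 TPM, and FADS1, a desaturase of polyunsaturated fatty acids, was at 62.5, 71.9 and 67.4 TPM against 23.2 and 27.1 in TOV-112D. ABCG1 was at 0 or below 0.083 TPM in all Saos-2 libraries.

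UCI-1001 was compared with DMSO to ask which members moved within 3 h. A small set of sterol genes rose and no fatty acid gene passed the test. In such bulk samples a change in the make-up of the cells and a change in RNA per cell cannot be told apart. Of the 36 members, 9 passed an adjusted p of 0.05 (edgeR quasi-likelihood test, Benjamini-Hochberg over 14177 genes). HMGCS1, MVK and IDI1 of the mevalonate steps, CYP51A1, MSMO1 and HSD17B7 of the late sterol steps, INSIG1 and STARD4 rose, and SREBF1 fell. The 9 of 36 called (25%) stand beside 15.7% of all genes tested. The 8 that rose stand beside 9.39% of all genes, and the 1 that fell beside 6.36%. None changed by more than 1 on the log2 scale, as 1.3% of all genes did. The median log2FC was 0.02 over the members and 0.0016 over all genes tested. INSIG1, MSMO1 and HSD17B7 passed in each of the 4 fits that left out 1 of these libraries, and 5 members passed without DMSO replicate 2. In 1 fit of all 12 libraries, where the spread is shared with the Saos-2 lines, HSD17B7 alone passed (INSIG1 had an adjusted p of 0.0582), and in TPM 2 of the 27 members tested rose and 1 fell, against 6 and 1 for the same members in counts.

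With UCI-1014, 21 of the 36 members passed the test, 8 upward and 13 downward. In the fatty acid steps 6 of 8 genes fell and none rose past the test, while ACSS2 and FADS1 were at 0.05 and 0.09 and did not pass. DESeq2 kept 3 of these 6 calls and 1 fit of all 12 libraries kept 1. The sterol steps split, with HMGCS1, IDI1, CYP51A1 and HSD17B7 higher and ACAT2, SQLE, LSS, NSDHL and EBP lower. INSIG1, SREBF2, STARD4 and LPIN1 rose, and SREBF1 and SCAP fell. The 58.3% called stand beside 47.1% of all genes tested, and the 13 members that fell, 6 of them fatty acid genes, stand beside 23.4% of all genes. The 8 members that rose stand beside 23.7%. HSD17B7 alone exceeded 1 on the log2 scale, as 5.49% of all genes did. The median log2FC was -0.07 over the members, -0.20 over the fatty acid steps and -0.02 over all genes tested. Both compounds were set against the same DMSO libraries, so their fold changes share these controls. In the 4 fits that left out 1 library, 12 of the 21 members passed every time, and 14 passed without DMSO replicate 1. In 1 fit of all 12 libraries HMGCS1, SQLE, LSS, NSDHL, HSD17B7, SCD, INSIG1 and LPIN1 passed, 8 in all. In TPM 3 of 27 members rose and 8 fell, against 6 and 10 for the same members in counts.

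UCI-1014 was also compared directly with UCI-1001, the only pair of compounds in the series, at the same time but at a dose that cannot be said to match. Of the 36 members 14 differed, 4 higher with UCI-1014 (HMGCS1, HSD17B7, SREBF2 and LPIN1) and 10 lower (ACAT2, MVK, FDPS, SQLE, LSS, MSMO1, NSDHL, ACLY, FASN and SCD). Over all genes 31.1% differed, 17.1% higher and 13.9% lower. No member differed by more than 1 on the log2 scale, as 1.84% of all genes did. The group medians were -0.12 for the mevalonate steps, -0.15 for the late sterol steps and -0.12 for the fatty acid steps, and the median over all genes was -0.01. In TPM none of 27 members was higher and 7 were lower, against 2 and 8 for the same members in counts, and 1 fit of all 12 libraries called 2 of the 36. FDPS and ACLY lay close to the threshold (adjusted p = 0.0477 and 0.0316). FDPS lost its call without UCI-1001 replicate 1 (adjusted p = 0.270), UCI-1001 replicate 2 (0.105) or UCI-1014 replicate 1 (0.358), and ACLY without any 1 of the 4 libraries (0.0982 to 0.207). LSS lost it without UCI-1001 replicate 1 (adjusted p = 0.0752).

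**Figure D1:**
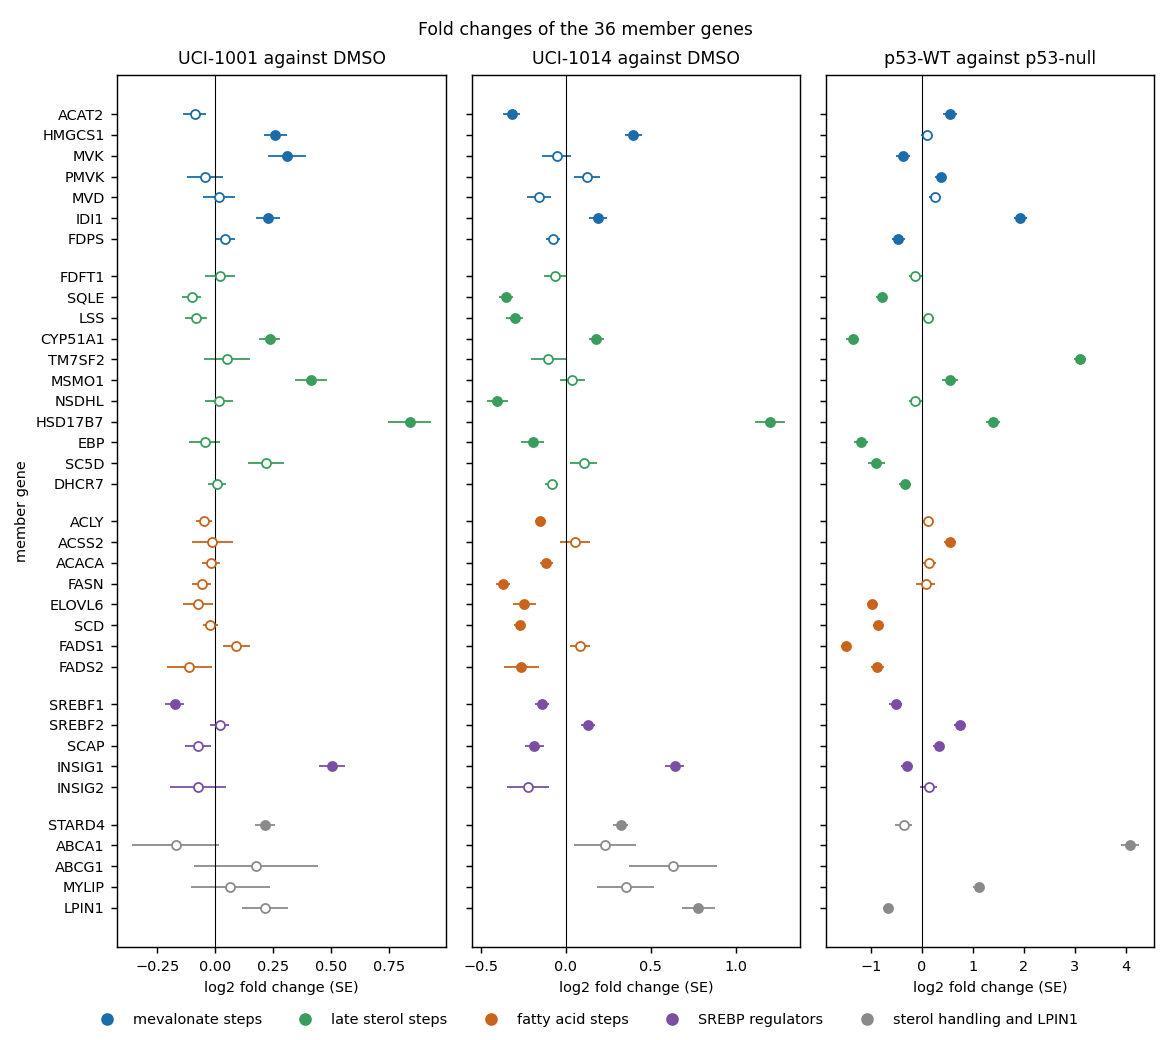
Log2 fold change (x axis, bars are the standard error) of the member genes (y axis), coloured by role, with UCI-1001 and UCI-1014 against DMSO in TOV-112D cells and p53-WT against p53-null in Saos-2 cells. Filled points passed an adjusted p of 0.05, each panel has its own x scale, and the 8 fatty acid genes are all open with UCI-1001 while 6 are filled and below 0 with UCI-1014.

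In the mevalonate steps, HMGCS1, which condenses acetyl-CoA units into the precursor of mevalonate, was at 70.1 and 71.5 CPM with DMSO, 83.6 and 85.8 with UCI-1001 and 95.3 and 91.1 with UCI-1014. The 3 groups did not overlap. HMGCS1 rose with UCI-1001 (log2FC 0.26, SE 0.049, adjusted p = 0.00249) and with UCI-1014 (log2FC 0.40, SE 0.049, adjusted p = 1.24e-05), and the compounds differed by 0.14 (SE 0.048, adjusted p = 0.0434). Without DMSO replicate 1 the adjusted p for UCI-1001 was 0.0616, and in TPM it was 0.160 (limma). The difference between the compounds was lost without UCI-1001 replicate 1 (adjusted p = 0.162), UCI-1001 replicate 2 (0.0510) or UCI-1014 replicate 1 (0.155).
MVK, mevalonate kinase, was at 26.8 and 23.1 CPM with DMSO, 30.5 and 31.3 with UCI-1001 and 24.1 and 23.9 with UCI-1014. The UCI-1001 libraries were the highest. The rise with UCI-1001 (log2FC 0.31, SE 0.081, adjusted p = 0.0189) had an adjusted p of 0.218 without DMSO replicate 2, 0.105 without UCI-1001 replicate 2 and 0.133 in DESeq2. Under UCI-1014 MVK was at -0.05 (95% interval -0.24 to 0.13), and the compounds differed by -0.36 (SE 0.082, adjusted p = 0.00382).
ACAT2, a thiolase that joins acetyl-CoA units, was at 104 and 98.7 CPM with DMSO, 93.7 and 96.7 with UCI-1001 and 83.7 and 79.1 with UCI-1014. The UCI-1014 libraries were lowest. ACAT2 fell with UCI-1014 (log2FC -0.32, SE 0.050, adjusted p = 1.17e-04) and was also lower than with UCI-1001 (-0.23, SE 0.050, adjusted p = 0.00332). IDI1, the isomerase of the isoprene units, rose by 0.23 with UCI-1001 and by 0.19 with UCI-1014 on the log2 scale. Without DMSO replicate 1 its adjusted p was 0.160 and 0.102, and the first was 0.114 without UCI-1001 replicate 2. In TPM IDI1 was at 0.15 with UCI-1001 (adjusted p = 0.204, limma) and at 0.03 with UCI-1014 (adjusted p = 0.747, limma). Exons of ACAT2 overlap TCP1 and SOD2, those of MVK overlap MMAB and those of CYP51A1 overlap AKAP9, each on the opposite strand. On the same strand, exons of CYP51A1 and of EBP also overlap protein-coding genes that have no symbol. PMVK, MVD and FDPS passed in neither comparison with DMSO, with log2FC from -0.16 to 0.13.

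In the late sterol steps HSD17B7, a ketosteroid reductase, had the largest change of all members with either compound. Its libraries read 10.2 and 9.96 CPM with DMSO, 17.6 and 18.4 with UCI-1001 and 22.6 and 23.6 with UCI-1014, with no overlap between the groups. It rose with UCI-1001 (log2FC 0.84, SE 0.092, adjusted p = 2.38e-05) and further with UCI-1014 (1.20, SE 0.090, adjusted p = 6.55e-08), a difference of 0.36 (SE 0.081, adjusted p = 0.00368, and 0.0729 in DESeq2). HSD17B7 shares sequence with the pseudogene copy HSD17B7P2, looked up after these values were seen, so its reads are uncertain. The copy held 23 and 25 counts with DMSO, 10 and 23 with UCI-1001 and 21 and 28 with UCI-1014, where HSD17B7 held 184 to 462. The groups of the copy overlapped.
MSMO1, a methylsterol oxidase, was at 40.8 and 40.7 CPM with DMSO, 50.8 and 57.7 with UCI-1001 and 40.9 and 42.8 with UCI-1014. Both UCI-1001 libraries were above the other 4. MSMO1 rose with UCI-1001 (log2FC 0.41, SE 0.069, adjusted p = 9.33e-04), while under UCI-1014 it was at 0.04 (95% interval -0.12 to 0.19). The compounds differed by -0.37 (SE 0.070, adjusted p = 9.25e-04).
NSDHL, a sterol dehydrogenase of the same demethylation, was at 44.5 and 45.8 CPM with DMSO, 45.3 and 46.0 with UCI-1001 and 35.0 and 33.4 with UCI-1014. Both UCI-1014 libraries were the lowest. NSDHL fell with UCI-1014 (log2FC -0.40, SE 0.064, adjusted p = 1.20e-04), was at 0.02 under UCI-1001 (95% interval -0.11 to 0.15), and differed between the compounds by -0.42 (SE 0.063, adjusted p = 1.74e-04).
CYP51A1, the lanosterol demethylase, rose by 0.23 with UCI-1001 and by 0.18 with UCI-1014 on the log2 scale, with adjusted p-values of 0.0528 and 0.0585 without DMSO replicate 2 and of 0.162 and 0.245 in TPM (limma). SQLE, squalene epoxidase, LSS, the cyclase, and EBP, a sterol isomerase, fell with UCI-1014 by 0.35, 0.30 and 0.20 on the log2 scale. EBP lost its call without DMSO replicate 1 (adjusted p = 0.297) or UCI-1014 replicate 1 (0.265). FDFT1, TM7SF2, SC5D and DHCR7 passed with neither compound, with log2FC from -0.10 to 0.22.

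**Figure D2:**
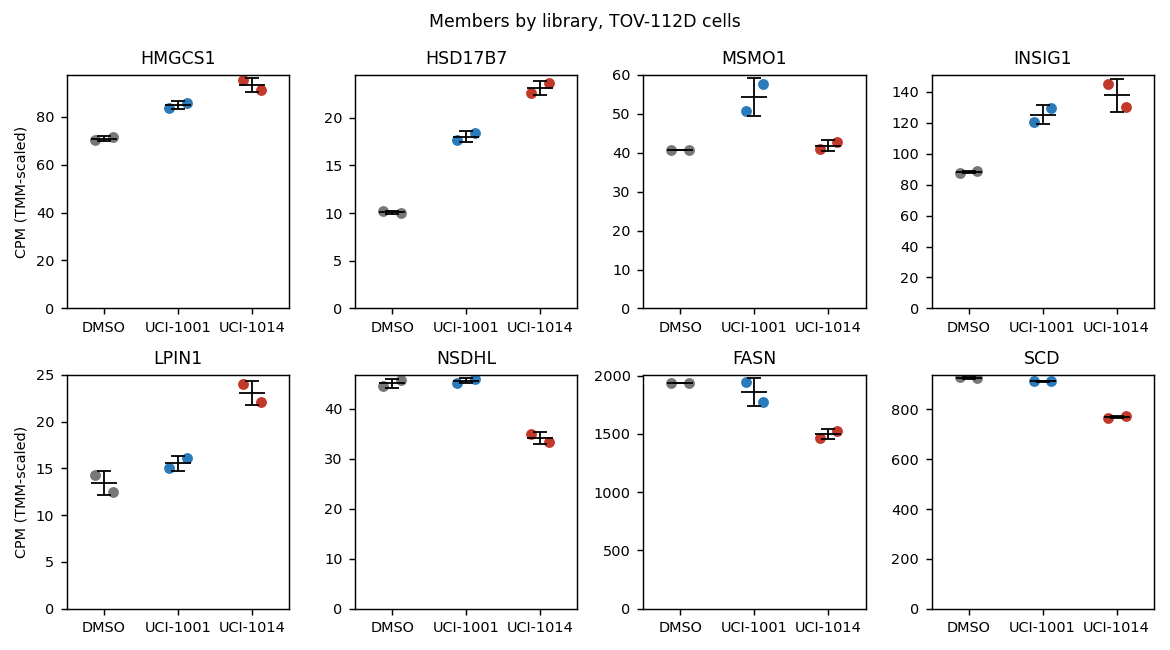
CPM (y axis, from 0) of 8 members in each TOV-112D library, 2 points per treatment (x axis), with the mean and SD of each pair in black. HSD17B7 sits near 10 CPM with DMSO, at 17.6 to 18.4 with UCI-1001 and at 22.6 to 23.6 with UCI-1014, whereas FASN and SCD are lowest with UCI-1014. The genes plotted were chosen from members that changed with a compound, so a lack of overlap is no result about the members.

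In the fatty acid steps 6 of 8 genes fell with UCI-1014, by less than 0.5 on the log2 scale. FASN (GRCh38, chr17:82078338-82098294), the synthase of palmitate, was at 1939 and 1936 CPM with DMSO, 1945 and 1776 with UCI-1001 and 1469 and 1527 with UCI-1014. Both UCI-1014 libraries lay below all 4 others. FASN fell with UCI-1014 (log2FC -0.37, SE 0.041, adjusted p = 3.85e-06, and 0.124 in 1 fit of all 12 libraries). Under UCI-1001 it was at -0.06 (95% interval -0.15 to 0.03), and the compounds differed by -0.31 (SE 0.041, adjusted p = 4.91e-05).
SCD (chr10:100347233-100364826), the desaturase that makes oleate, was at 929 and 924 CPM with DMSO, 914 and 912 with UCI-1001 and 766 and 772 with UCI-1014. Again the UCI-1014 libraries were lowest. SCD fell with UCI-1014 (log2FC -0.27, SE 0.032, adjusted p = 8.08e-06), was at -0.02 under UCI-1001 (95% interval -0.09 to 0.05), and differed between the compounds by -0.25 (SE 0.032, adjusted p = 4.39e-05).
With UCI-1014 ACLY, which makes cytosolic acetyl-CoA from citrate, fell by 0.15, ACACA, the acetyl-CoA carboxylase, by 0.11, the elongase ELOVL6 by 0.24 and the desaturase FADS2 by 0.26 on the log2 scale. ACLY, FASN and SCD passed in every fit that left out 1 library, while the others did not. ACACA had an adjusted p of 0.153 without DMSO replicate 1, 0.131 without DMSO replicate 2 and 0.255 without UCI-1014 replicate 2. ELOVL6 had 0.0653 without DMSO replicate 2 and 0.0899 without UCI-1014 replicate 2, and FADS2 had 0.508 without DMSO replicate 1 and 0.266 without UCI-1014 replicate 1. DESeq2 called 3 of the 8 genes lower, and 1 fit of all 12 libraries called SCD alone. ACSS2 and FADS1 were at 0.05 and 0.09 with UCI-1014, with 95% intervals of -0.14 to 0.24 and -0.04 to 0.21. The summed CPM of the 8 genes was 4062 and 4046 with DMSO, 4021 and 3849 with UCI-1001 and 3336 and 3375 with UCI-1014. Exons of FADS1 and FADS2 overlap on opposite strands, and the strand setting of the counting was not given in the sources used here, so reads of these genes may be mixed. FADS2 exons also overlap FEN1 on the same strand.

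**Figure D3:**
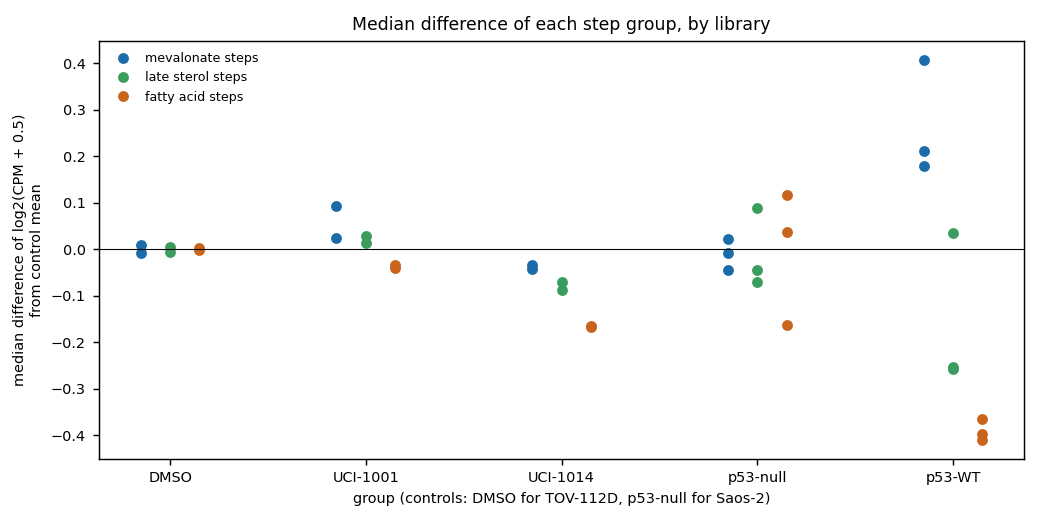
Median over the genes of each synthesis step of the difference in log2(CPM + 0.5) from the mean of the control libraries (y axis), 1 point per library in each group (x axis). The fatty acid steps sit at -0.16 and -0.17 in the UCI-1014 libraries and between -0.41 and -0.36 in the p53-WT libraries, and the mevalonate steps lie above 0 in all 3 p53-WT libraries.

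Among the regulators INSIG1, which retains SREBP in the endoplasmic reticulum and is itself a known SREBP target, changed most. It was at 87.8 and 88.5 CPM with DMSO, 121 and 129 with UCI-1001 and 145 and 130 with UCI-1014. Both compounds lay above DMSO in every library. INSIG1 rose with UCI-1001 (log2FC 0.50, SE 0.055, adjusted p = 2.38e-05) and with UCI-1014 (0.64, SE 0.055, adjusted p = 2.98e-07), with a difference of 0.14 between the compounds (95% interval 0.02 to 0.25, adjusted p = 0.0681). That last difference passed without UCI-1001 replicate 2 (adjusted p = 0.0261) and without UCI-1014 replicate 2 (adjusted p = 0.00744).
SREBF1 was at 269 and 261 CPM with DMSO, 237 and 232 with UCI-1001 and 232 and 249 with UCI-1014. The compound libraries were lower in every case. SREBF1 fell slightly with UCI-1001 (log2FC -0.18, SE 0.041, adjusted p = 0.00968) and with UCI-1014 (-0.14, SE 0.041, adjusted p = 0.0116), and the difference between the compounds was 0.03 (95% interval -0.05 to 0.12). The call with UCI-1001 was lost without DMSO replicate 1 (adjusted p = 0.138), DMSO replicate 2 (adjusted p = 0.0616) or UCI-1001 replicate 2 (adjusted p = 0.0638), and that with UCI-1014 without DMSO replicate 1 (adjusted p = 0.155) or UCI-1014 replicate 1 (adjusted p = 0.158).
SREBF2 was at 182 and 185 CPM with DMSO, 189 and 182 with UCI-1001 and 203 and 198 with UCI-1014. Only UCI-1014 stood above the other groups. SREBF2 was at 0.02 under UCI-1001 (95% interval -0.07 to 0.10), rose with UCI-1014 (log2FC 0.13, SE 0.039, adjusted p = 0.0143), and differed between the compounds by 0.11 (SE 0.039, adjusted p = 0.0448). The call with UCI-1014 was lost without DMSO replicate 1 (adjusted p = 0.0993) or replicate 2 (adjusted p = 0.0714), and the difference between the compounds without UCI-1001 replicate 2 (adjusted p = 0.156) or UCI-1014 replicate 1 (adjusted p = 0.117).
SCAP was at 123 and 117 CPM with DMSO, 121 and 108 with UCI-1001 and 104 and 108 with UCI-1014, and fell with the last (log2FC -0.18, SE 0.055, adjusted p = 0.0134). Without DMSO replicate 1 its adjusted p was 0.177, and without UCI-1014 replicate 1 it was 0.0987. INSIG2 passed in neither, at -0.07 under UCI-1001 and -0.22 under UCI-1014.
Exons of SREBF1 overlap RAI1 on the opposite strand. Of SREBF1, the transcripts that begin at the upstream start, as SREBP-1a does, summed to 91.9 and 88.9 TPM with DMSO, 84.0 and 83.2 with UCI-1001 and 81.6 and 86.1 with UCI-1014. Those that begin at the next start, as SREBP-1c does, summed to 3.62 to 13.3 TPM in these 6 libraries. The other 17 SREBF1 transcripts, which begin at neither start, summed to 38.3 to 64.3 TPM and were assigned to neither form. No test was made of transcripts.

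In sterol handling, STARD4, a carrier of sterol between membranes, was at 144 and 138 CPM with DMSO, 161 and 165 with UCI-1001 and 181 and 171 with UCI-1014. It rose by 0.21 with UCI-1001 (SE 0.044, adjusted p = 0.00384, with 0.0935 without DMSO replicate 2 and 0.169 in TPM by limma) and by 0.32 with UCI-1014 (SE 0.044, adjusted p = 2.63e-05) on the log2 scale. The difference between the compounds was 0.11 (95% interval 0.02 to 0.20, adjusted p = 0.0686).
LPIN1 (chr2:11677595-11827409), a phosphatidate phosphatase of triglyceride synthesis, was at 14.3 and 12.5 CPM with DMSO, 15.01 and 16.15 with UCI-1001 and 24.0 and 22.2 with UCI-1014. The UCI-1014 libraries stood apart. LPIN1 rose with UCI-1014 (log2FC 0.78, SE 0.096, adjusted p = 1.02e-05), was at 0.21 under UCI-1001 (adjusted p = 0.177), and differed between the compounds by 0.57 (SE 0.093, adjusted p = 3.29e-04). In TPM the rise with UCI-1014 was 0.37 (adjusted p = 0.124, limma) and the difference between the compounds 0.40 (adjusted p = 0.137, limma).
ABCA1 was low, at 4.64 and 6.28 CPM with DMSO, 5.10 and 4.58 with UCI-1001 and 5.73 and 7.01 with UCI-1014. The groups overlapped, except that both UCI-1014 libraries were above both UCI-1001 libraries. ABCA1 was at -0.17 on the log2 scale under UCI-1001 (95% interval -0.57 to 0.23), 0.23 under UCI-1014 (95% interval -0.16 to 0.62) and 0.40 between them (95% interval 0.01 to 0.80, adjusted p = 0.116). ABCG1 and MYLIP were at 0.63 and 0.35 under UCI-1014, with adjusted p-values of 0.0594 and 0.100.

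In Saos-2 cells the p53-WT line was compared with its p53-null parent. ABCA1 and TM7SF2 stood far above the p53-null level, IDI1, HSD17B7 and MYLIP rose by more than 1 on the log2 scale, and FADS1, CYP51A1 and EBP fell by more than 1. In all, 25 of 35 members tested passed, 11 higher and 14 lower, while ABCG1 was at 0 to 2 counts per library and was not tested. The 71.4% called lie near the 66.5% of all genes tested (33.5% higher and 33% lower), so the count itself does not set the members apart. The 8 members beyond 1 on the log2 scale stand beside 30.5% of all genes. By role, 3 of the 7 mevalonate genes rose and 2 fell, 3 of the 11 late sterol genes rose and 5 fell, and 1 of the 8 fatty acid genes rose and 4 fell. The median log2FC was 0.25, -0.13 and -0.39 in these groups and -0.01 over all 14275 genes tested. In the 6 fits that left out 1 library 21 of the 25 passed every time, the others being INSIG1, MVK, SCAP and DHCR7. Without both replicate 1 libraries 29 members passed, 13 higher and 16 lower, including all 25 of the above. The 4 gained in that edgeR fit were HMGCS1 (log2FC 0.19, adjusted p = 0.00725), INSIG2 (0.37, adjusted p = 9.04e-04), NSDHL (-0.21, adjusted p = 0.0220) and FASN (-0.17, adjusted p = 0.0158). In TPM, over 27 of the members, 6 were higher and 15 lower, against 8 and 13 for the same members in counts. The TPM scale moved the median of all genes to -0.24.

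IDI1 was at 93.6, 75.8 and 74.0 CPM in p53-null cells and 270, 326 and 331 in p53-WT cells. The groups were far apart (log2FC 1.93, SE 0.13, adjusted p = 2.28e-07). ACAT2 was at 165, 126 and 127 CPM in p53-null and 238, 185 and 189 CPM in p53-WT cells, and replicate 1 was the highest of each line. It rose by 0.55 (SE 0.14, adjusted p = 0.00508). PMVK rose by 0.37, MVK and FDPS, which makes farnesyl diphosphate, fell by 0.37 and 0.46, and HMGCS1 and MVD were at 0.10 and 0.25 and did not pass. In TPM PMVK was at 0.14 (adjusted p = 0.279, limma). MVK lost its call without p53-null replicate 1 (adjusted p = 0.0586), 2 (0.0802) or 3 (0.137) and without p53-WT replicate 2 (0.132) or 3 (0.162).

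TM7SF2 (chr11:65111845-65116384), a sterol reductase, was at 22.2, 24.0 and 23.9 CPM in p53-null and 224, 182 and 194 CPM in p53-WT cells. This was the largest change in the synthesis steps (log2FC 3.10, SE 0.12, adjusted p = 3.80e-09), and its exons overlap those of VPS51 on the same strand. HSD17B7 was at 20.5, 16.4 and 15.5 CPM in p53-null and 52.2, 43.9 and 41.7 CPM in p53-WT cells (log2FC 1.39, SE 0.14, adjusted p = 5.25e-06). It thus rose in all 3 comparisons with a control, and so did IDI1. The share of all genes that did so was not counted. The pseudogene copy of HSD17B7 held 6 to 9 counts in p53-null and 46 to 78 in p53-WT libraries. HSD17B7 itself held 346 to 445 and 881 to 1178 counts there. CYP51A1 was at 159, 148 and 141 CPM in p53-null and 48.8, 61.4 and 64.6 CPM in p53-WT cells, and fell by 1.36 (SE 0.12). EBP, SC5D, SQLE and DHCR7 fell by 1.20, 0.89, 0.79 and 0.34, and DHCR7 lost its call without p53-null replicate 2 (adjusted p = 0.0873) or 3 (0.0840) or p53-WT replicate 2 (0.0959) or 3 (0.107). MSMO1 was higher by 0.55, but its p53-WT replicate 1, at 49.1 CPM, lay within the p53-null range of 39.5 to 50.9 CPM and the others were at 73.8 and 72.4. In TPM MSMO1 was at 0.31 (adjusted p = 0.231, limma). FDFT1, LSS and NSDHL did not pass, at -0.13 to 0.12. The median of the late sterol steps against the p53-null mean was 0.04 in p53-WT replicate 1 and -0.25 and -0.26 in the others, so replicate 1 differed here from its group.

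**Figure D4:**
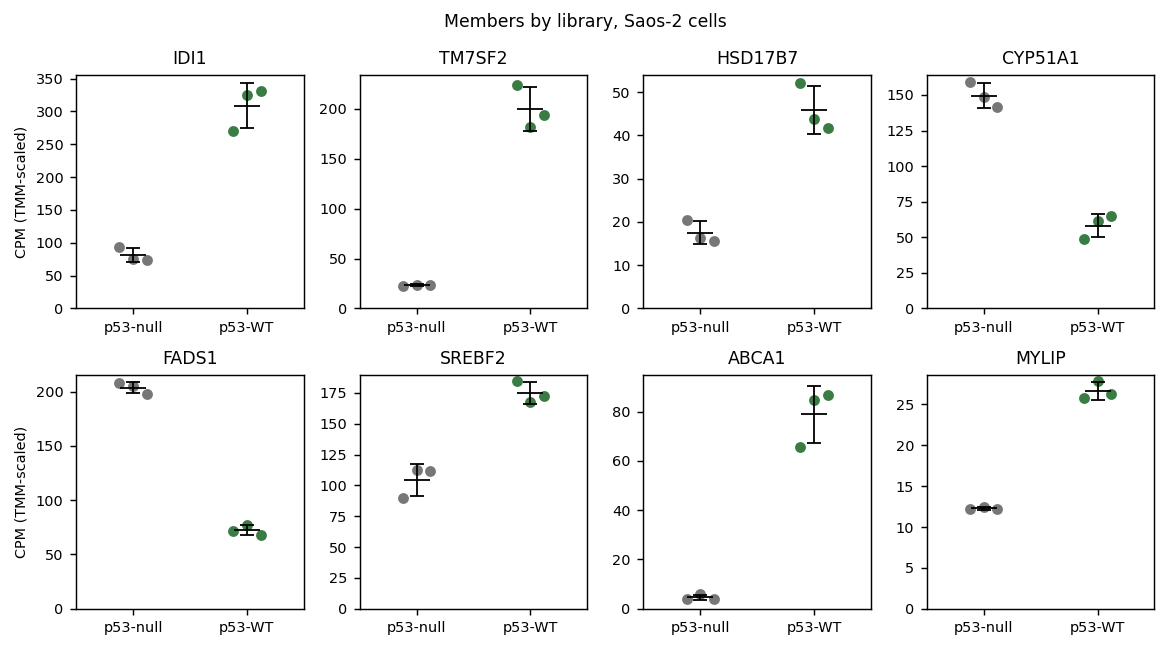
CPM (y axis, from 0) of 8 members in each Saos-2 library, 3 points per line (x axis), with the mean and SD in black. ABCA1 sits at 3.96 to 5.92 CPM in p53-null and 65.7 to 86.6 CPM in p53-WT libraries. The genes plotted were chosen from members that changed between the lines, so their lack of overlap is no result about the members. MSMO1, HMGCS1, FASN and LSS are among the members that overlapped.

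FADS1 was at 208, 205 and 198 CPM in p53-null and 71.9, 77.2 and 68.3 CPM in p53-WT cells. It fell by 1.49 (SE 0.10, adjusted p = 2.07e-07), the largest fall among the members. ELOVL6 was at 60.4, 56.7 and 49.8 CPM in p53-null and 27.1, 29.3 and 28.7 CPM in p53-WT cells, and fell by 0.97 (SE 0.11, adjusted p = 1.55e-05). The desaturases SCD and FADS2 fell by 0.85 and 0.88, and ACSS2, which makes acetyl-CoA from acetate, rose by 0.55. The earlier steps ACLY, ACACA and FASN did not pass, at 0.12, 0.14 and 0.07. FASN replicate 1 of the p53-null line, at 277 CPM, was below its other replicates at 475 and 476 CPM, and without both replicate 1 libraries the direction of FASN turned, to a fall of 0.17 that passed (log2FC -0.17, adjusted p = 0.0158). The summed CPM of the 8 genes was 1727, 2149 and 2075 in p53-null and 1550, 1451 and 1463 in p53-WT cells.

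SREBF2 was at 89.8, 113 and 112 CPM in p53-null and 185, 168 and 173 CPM in p53-WT cells, a rise (log2FC 0.74, SE 0.12, adjusted p = 1.71e-04). SREBF1 moved the opposite way, from 148, 179 and 184 CPM to 139, 111 and 109 CPM, and fell by 0.51 (SE 0.13, adjusted p = 0.00467). Its upstream-start transcripts summed to 36.1, 51.8 and 52.6 TPM in p53-null and 28.0, 28.8 and 27.5 TPM in p53-WT cells. INSIG1 was at 60.9, 68.3 and 61.9 CPM in p53-null and 44.7, 56.8 and 54.5 CPM in p53-WT cells (log2FC -0.29, SE 0.12, adjusted p = 0.0470). The call was lost in 5 of the 6 fits that left out 1 library, with adjusted p-values of 0.0518, 0.197 and 0.0937 without p53-null replicates 1, 2 and 3 and of 0.0811 and 0.0785 without p53-WT replicates 1 and 3. SCAP rose by 0.33, with an adjusted p of 0.0559 and 0.0693 without p53-null replicates 1 and 2 and 0.0563 without p53-WT replicate 3, and INSIG2 was at 0.14.

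ABCA1 (chr9:104781006-104928155), which exports cholesterol from the cell, was at 3.96, 5.92 and 4.08 CPM in p53-null and 65.7, 84.8 and 86.6 CPM in p53-WT cells. It rose 17.0-fold (log2FC 4.09, SE 0.18, adjusted p = 9.49e-09). MYLIP was at 12.2, 12.5 and 12.2 CPM in p53-null and 25.8, 27.8 and 26.3 CPM in p53-WT cells, also without overlap (log2FC 1.12, SE 0.11, adjusted p = 3.70e-06). ABCG1, the other exporter, held too few counts for a test. LPIN1 was at 60.5, 67.3 and 61.9 CPM in p53-null and 40.4, 42.4 and 36.8 CPM in p53-WT cells and fell by 0.67 (SE 0.11, adjusted p = 2.01e-04). STARD4 was at -0.36 with an adjusted p of 0.0660.

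The p53-WT effect was compared with each compound effect in 1 fit of all 12 libraries. The cell line, the time and the kind of perturbation all differ between the 2 effects and cannot be told apart. The effects differed for 23 of 36 members with UCI-1001, where 49.7% of all genes differed, and for 23 of 36 with UCI-1014, where 53% did. In the fits by cell line, IDI1, HSD17B7 and SREBF2 rose and SQLE, EBP, ELOVL6, SCD, FADS2 and SREBF1 fell with both UCI-1014 and p53-WT. ACAT2, CYP51A1, SCAP, INSIG1 and LPIN1 were called in opposite directions. Of all genes tested, 47.1% were called with UCI-1014 and 66.5% with p53-WT. The share of all genes called in the same or in opposite directions was not counted, so neither list sets the members apart. Several calls in both lists did not hold when 1 library was left out, as given above. CYP51A1 fell with p53-WT and was called higher with both compounds. In 1 fit of all 12 libraries it passed with neither compound (adjusted p = 0.579 and 0.531). Its p53-WT effect differed by -1.55 from UCI-1001 (SE 0.15, adjusted p = 1.43e-06) and by -1.47 from UCI-1014 (SE 0.15, adjusted p = 2.28e-06). LPIN1, higher with UCI-1014 and lower with p53-WT, gave a difference of -1.38 (SE 0.14, adjusted p = 2.15e-06). ACAT2, lower with UCI-1014 (adjusted p = 0.0732 in 1 fit of all 12 libraries) and higher with p53-WT, gave a difference of 0.94 (SE 0.18, adjusted p = 5.94e-04). INSIG1 differed by -0.76 from UCI-1001 and -0.86 from UCI-1014 (adjusted p = 7.70e-04 and 2.43e-04). For HSD17B7 the p53-WT effect exceeded that of UCI-1001 by 0.60 (SE 0.19, adjusted p = 0.0161), a call lost without DMSO replicate 1 (adjusted p = 0.0627) or UCI-1001 replicate 1 (0.0614). The difference from UCI-1014 was 0.27 (SE 0.18, adjusted p = 0.248). ABCA1 and TM7SF2, which passed with neither compound, differed by 4.30 and 3.09 from UCI-1001 and by 3.93 and 3.27 from UCI-1014.

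Of 29 further genes of these pathways, chosen by role, 28 were tested in TOV-112D cells. With UCI-1001 5 rose and 1 fell (21.4% called, against 15.7% of all genes), and with UCI-1014 10 rose and 7 fell (60.7% against 47.1%). The largest rises with UCI-1014 were VLDLR, a lipoprotein receptor (log2FC 1.93, adjusted p = 1.52e-05), ME1, a source of NADPH (0.91, adjusted p = 0.0124), and the fatty acid elongase ELOVL5 (0.74, adjusted p = 4.04e-09). The largest falls were those of the elongase ELOVL1 (-0.37, adjusted p = 5.88e-04) and the acyltransferase LPCAT3 (-0.35, adjusted p = 3.81e-05). VLDLR was low, at 1.24 and 1.46 CPM with DMSO and 5.55 and 4.81 with UCI-1014. ME1 was also low, at 1.65 and 1.46 CPM with DMSO and 2.99 and 2.87 with UCI-1014. With p53-WT 9 of 29 rose and 14 fell (79.3% against 66.5%). Of the genes just named, LPCAT3, ELOVL1 and ME1 rose there by 2.68, 0.76 and 0.67, ELOVL5 fell by 0.70, and VLDLR was at 0.17 and did not pass. Larger rises than that of LPCAT3, picked out after the values were seen, were those of LPIN3 (7.10), MID1IP1 (3.04) and FADS3 (2.88). Falls reached -2.23. As examples, also picked out afterwards, TMEM97 was at 37.4 to 39.4 CPM in p53-null and 7.35 to 8.71 CPM in p53-WT cells. ERLIN1 was at 76.2 to 84.1 CPM and 20.7 to 22.8 CPM.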

How the data were processed

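RNA was extracted with the RNeasy kit and libraries were made and sequenced by Novogene. Per the study's methods the authors quantified reads on GRCh38 with kallisto 0.48.0, summed estimated counts by Ensembl gene to whole numbers and tested them with DESeq2 1.38.3. The annotation release and strand setting were not given in the sources used here. The deposited gene table holds raw counts, and the authors also deposited files of transcript estimated counts and TPM for 187626 transcripts. Here gene counts were summed by symbol (8043 rows without a symbol and 29 date-like symbols kept by identifier; ACACA and LSS each joined 2 identifiers) and tested in edgeR 4.0.16 (R 4.3.3; filterByExpr, TMM, glmQLFit, glmQLFTest, Benjamini-Hochberg), with 1 fit per cell line and 1 of all 12 libraries for differences of effects. A member was called at an adjusted p under 0.05. Confidence intervals are those of the fit. Gene TPM were summed from transcripts where a gene's transcripts added up to its tabled count (tolerance 1 count; 32789 identifiers), which covered 28 members. Gene coordinates are GRCh38, from the reference annotation. Scripts were tested on simulated counts.

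The members and lists were chosen with earlier results of these data known. Members given in full were, in each comparison and role, the 2 with the largest fold change among those called without overlap of the groups, and SREBF1, SREBF2, INSIG1 and ABCA1 throughout. For those 2, the lack of overlap follows from the choice and adds nothing to the test. The share of all genes without overlap was not counted. Of the rest, some are given with a fold change only. Alternatives were RLE size factors, DESeq2 1.42.0, no filter on low counts, rows by identifier, 1 fit of all libraries, a replicate block, limma 3.58.1 on log2(TPM + 0.5) for genes with a mean TPM of at least 1, and leaving out each library. Groups came from the labels. Some genes are not reported here.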

Additional observations from a re-analysis of the deposited data

How the results depend on the processing

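With UCI-1001, 9 members were called; limma on TPM called 3 of the 27 it tested, 1 fit of all 12 libraries called 1, and leaving out a library gave 5 to 10. With UCI-1014, 21 were called; the same settings gave 11 of 27, 8, and 14 to 20. Between the compounds, 14 were called, with 7 of 27, 2, and 11 to 16. With p53-WT, 25 were called, with 21 of 27, 27, and 21 to 26. RLE factors, no filter, rows by identifier and DESeq2 kept each count within 1.5 times. No called member changed sign in any alternative of these 4 comparisons. The effect differences from UCI-1001 and UCI-1014 (23 members each) gave 17 to 27 and 17 to 28 without 1 library, and 28 and 29 without both Saos-2 replicate 1 libraries, a setting chosen after seeing the data.

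Some same-numbered libraries deviated together and others did not (r = 0.119, -0.028 and -0.264 in TOV-112D; 0.231, 0.400 and 0.018 in Saos-2). Since not every pair did, and p53-WT replicate 3 correlated best with p53-null replicate 2 (r = 0.443), the replicate number was not treated as a pairing. The replicate block gave 9, 19, 10 and 25 members in the 4 comparisons in turn, and 23 and 26 for the effect differences. Crossing the numbers of UCI-1014, chosen after seeing the data, gave 19 between the compounds.

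For members not called, signs were followed only where the member was given in full. Of these, SREBF2 changed sign with UCI-1001 (-0.012 in 1 fit of all libraries, and -0.0082 to 0.040 when 1 library was left out). So did ABCA1 with UCI-1001 (-0.38 to 0.061 when 1 library was left out) and SREBF1 between the compounds (-0.0067 to 0.10 likewise). Among the other members FASN turned with p53-WT, as given above, and further changes of sign were not listed. Where a treatment is left with 1 library, that library is assumed to vary like the others. ABCG1, at 0 to 2 counts in Saos-2, lay under the floor of 3 counts, so no change of it could be read there.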
